A study of Bos taurus with 12 samples.

Results

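Cultured bovine adrenal chromaffin cells were compared after 24 h with interleukin 6 (IL6, 10 nM) and after 24 h with human interferon alpha (IFNα, 1 nM). The comparison uses 6 of the 12 arrays of the series, 3 labelled as IL6-treated and 3 labelled as IFNα-treated, chosen by their treatment labels alone. Untreated cells (3 arrays, culture time not given in the sources used here) are shown beside both cytokines as a description of the starting level. The other 3 arrays, cells given 10 µM histamine for 6 h, did not enter the differences themselves. They served to estimate the spread and, with all other arrays, to choose the probe set each gene is read from. The triplicates are technical repeats by the submitters' design text, so p-values measure only the spread between these arrays, not that between cultures or animals. Precision is limited by how few arrays there are. No other limit of the cell model, such as the number of glands behind the culture, is given in the sources used here.

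IL6 binds its receptor IL6R and the shared signalling chain IL6ST, and acts mainly through the kinase JAK1 and the transcription factor STAT3. IFNα binds IFNAR1 and IFNAR2, and acts through a complex with STAT2 and IRF9 that switches on antiviral genes. Chromaffin cells of the adrenal medulla make and release catecholamines together with chromogranins and neuropeptides.

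The values are log2 RMA expression levels of probe sets on an Affymetrix bovine array. Called probe sets are those at least 1.5-fold apart whose limma p, adjusted by Benjamini-Hochberg, was under 0.05. Log2 differences below are IL6 minus IFNα. Their standard errors (SE), intervals and p-values rest on a spread pooled over all 4 groups. Untreated and histamine arrays thus enter that spread too. The 3 IL6 arrays correlated with the 3 IFNα arrays at 0.9772 to 0.9811 over all probe sets, and arrays of the same cytokine correlated at 0.9933 to 0.9983. Of 24016 probe sets, 1468 were called (6.11%), 678 higher (2.82%) and 790 lower (3.29%) after IL6. The arrays of the cytokines did not overlap in 1442 of the called probe sets, against 38.7% of all probe sets. Of 9155 named genes, each read from its brightest probe set, 283 were higher after IL6 (3.09%) and 354 were lower (3.87%), which is 6.96% in all. The cytokine arrays did not overlap in 45.7% of the genes, and the median difference over all of them was 0.013.

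Some arrays stood apart within their group. Over 32 glycolysis and hypoxia genes, the mean log2 level was 9.684, 10.219 and 10.542 on IL6 repeats 1, 2 and 3, against 9.608, 9.630 and 10.326 on IFNα repeats 1, 2 and 3, with 9.637, 9.644 and 9.606 on the untreated arrays. IL6 repeats 2 and 3 and IFNα repeat 3 were therefore the high arrays, in both groups. Without these 3 arrays the comparison rests on IL6 repeat 1 alone against IFNα repeats 1 and 2. Every value or call given below without them therefore has 1 array in the IL6 group, and no measure of the spread after IL6. Untreated repeat 1 also differed from the other untreated arrays in some antiviral genes, as given below.

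**Figure D1:**
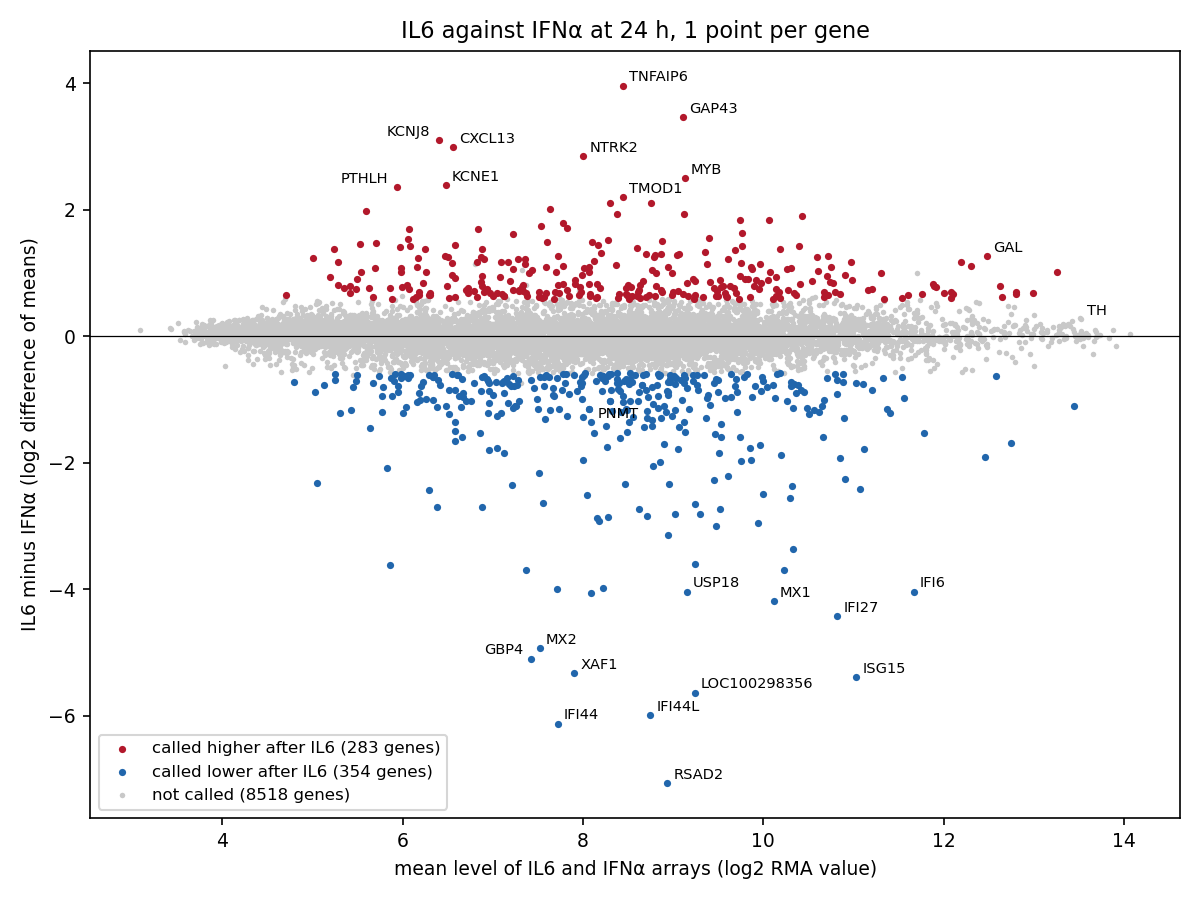
Each point is a gene, with its mean log2 level over the IL6 and IFNα arrays on the horizontal axis and its log2 difference, IL6 minus IFNα, on the vertical axis, with called genes coloured. The lower side reaches -7.07 (RSAD2) and the upper side 3.96 (TNFAIP6).

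The largest differences were in antiviral genes, which were lower after IL6. RSAD2, or viperin, which makes a chain-terminating nucleotide against viruses, had log2 levels of 5.59, 5.35 and 5.27 after IL6, against 12.53, 12.48 and 12.40 after IFNα, with 7.16, 4.79 and 4.72 in untreated cells. The IL6 and IFNα arrays were far apart, and the first untreated array lay above the IL6 arrays. The difference was -7.07 ± 0.43 (SE), a level 134-fold lower after IL6 (limma, adjusted p = 1.09e-08). The pooled spread behind that SE includes the uneven untreated arrays. ISG15, a ubiquitin-like modifier, had 8.31, 8.33 and 8.37 after IL6, against 13.72, 13.78 and 13.68 after IFNα, with 8.78, 7.82 and 7.66 in untreated cells. Its difference of -5.39 ± 0.21 (SE) is a 41.9-fold lower level after IL6, and its IFNα values lie near the upper end of the arrays, where signals can be compressed.

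Of 39 antiviral effectors listed, 24 had a named probe set, and 23 were lower and none higher after IL6, with a median difference of -3.318. IFI44, a cytoplasmic interferon-induced protein, had 4.54, 4.69 and 4.74 after IL6, against 10.84, 10.86 and 10.65 after IFNα, with 4.52, 4.49 and 4.50 in untreated cells. Its IL6 arrays sat beside the untreated ones at the dim end of the arrays, so the level was at least 69.9-fold lower after IL6 (difference -6.13). Its genomic neighbour IFI44L differed by -5.99, XAF1, a promoter of apoptosis, by -5.32, and MX2, a dynamin-like GTPase that blocks viruses, by -4.93. MX1, the related GTPase, had 8.01, 7.97 and 8.07 after IL6, against 12.18, 12.17 and 12.29 after IFNα, with 8.12, 7.74 and 7.58 in untreated cells, a level 18.3-fold lower after IL6. IFI27, a small mitochondrial interferon-induced protein, had 8.52, 8.56 and 8.73 after IL6, against 13.08, 13.05 and 12.98 after IFNα, with 7.58, 7.38 and 7.36 in untreated cells. The IL6 arrays of IFI27 were thus separate from both other groups, far below IFNα (21.6-fold) and above the untreated arrays.

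EIF2AK2, the kinase PKR that halts translation when it meets double-stranded RNA, was less even between repeats. It had 6.13, 6.14 and 5.91 after IL6, against 9.13, 10.24 and 11.00 after IFNα, with 7.97, 6.00 and 6.16 in untreated cells. Its difference was -4.06 ± 0.48 (SE). A second, dimmer probe set of the gene went the other way with separate arrays (0.42, limma adjusted p = 0.0062), below the fold limit. The 2 probe sets thus disagree in direction. The antiviral list's mean log2 level was 7.284, 7.235 and 7.263 after IL6, against 10.519, 10.579 and 10.557 after IFNα, with 7.278, 7.010 and 7.016 in untreated cells. The first untreated array was the high one there, and its part in the untreated level was not tested. NMI, which binds STAT proteins, was the uncalled member: it had 10.71, 10.63 and 10.48 after IL6, against 10.99, 11.01 and 10.87 after IFNα, with 9.45, 9.46 and 9.44 in untreated cells. NMI was named after its values were seen; both cytokines' arrays lay above the untreated arrays.

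**Figure D2:**
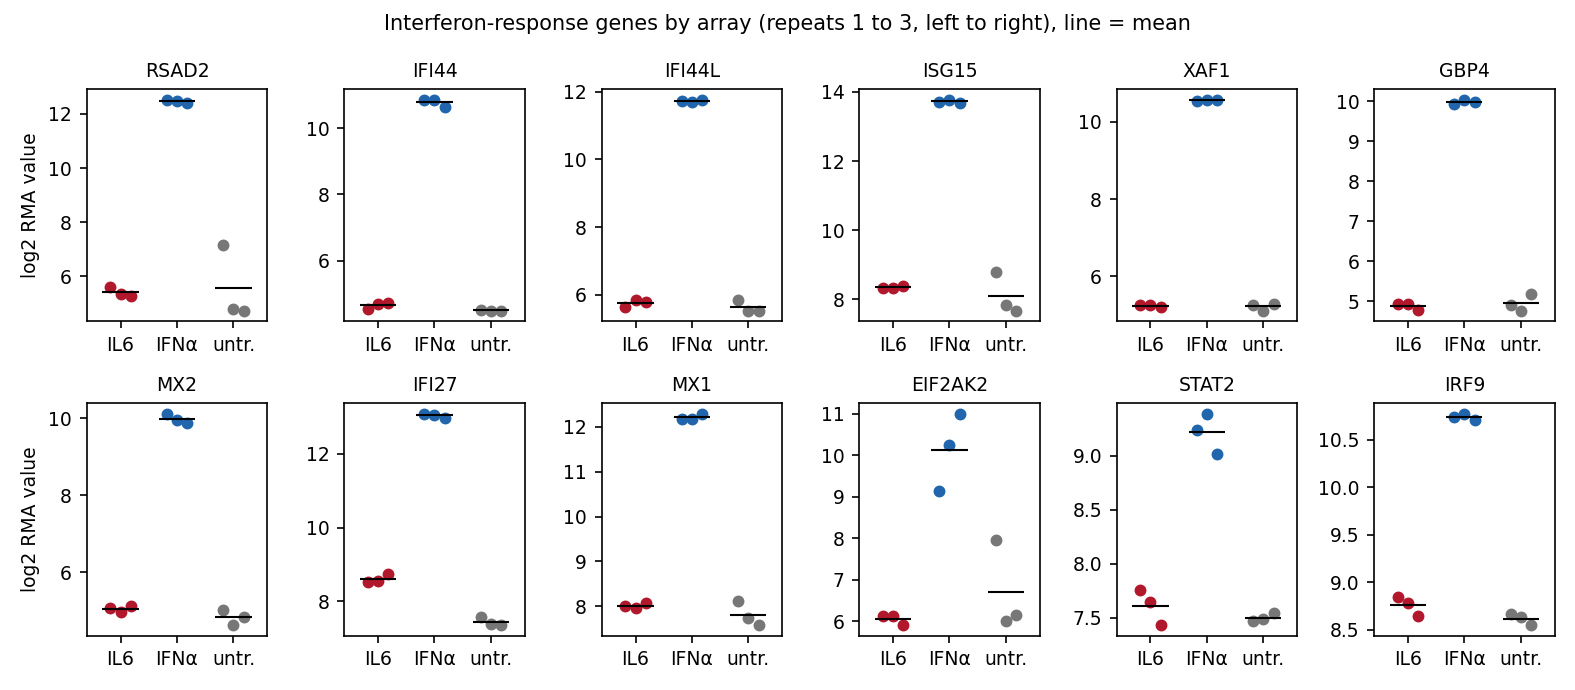
Log2 levels of interferon-response genes on each array, with IL6 arrays at the left of each panel, IFNα arrays next and untreated arrays (untr.) at the right, each panel on its own axis and lines at group means. In RSAD2, ISG15, IFI44 and MX1 no IL6 array reaches an IFNα array.

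Genes that carry the IFNα signal were called less often than the antiviral effectors, a difference in share that was not tested. Of 10 measured genes of type I interferon receptor signalling, 4 were lower and none higher after IL6, with a median of -0.232. IRF7, a transcription factor that amplifies the interferon response, differed by -2.73, while 1 of its other probe sets was not called (0.02). IRF9, the DNA-binding part of the STAT complex, had 8.85, 8.78 and 8.65 after IL6, against 10.74, 10.77 and 10.71 after IFNα, with 8.67, 8.63 and 8.55 in untreated cells. STAT2 had 7.76, 7.64 and 7.43 after IL6, against 9.24, 9.39 and 9.02 after IFNα, with 7.47, 7.49 and 7.54 in untreated cells. Both were separate between the cytokines, with log2 differences of -1.98 and -1.61, and IRF3, a factor activated by viral infection, followed at -0.89. The receptor chains IFNAR1 (0.34) and IFNAR2 (0.18) and the shared kinase JAK1 (0.10) were not called. JAK2, SOCS1 and IL6ST had no named probe set here.

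All 6 listed genes of ISG15 conjugation were called. UBA7, which activates ISG15, had a 13-fold lower level after IL6 (-3.70), UBE2L6, which passes it on, differed by -1.84, USP18, which removes it, by -4.04, and HERC6, a ligase of the same family, by -2.32. HERC5, another ligase of that family, was the member higher after IL6: it had 5.46, 5.85 and 5.95 after IL6, against 5.09, 5.01 and 5.14 after IFNα, with 5.55, 5.57 and 5.49 in untreated cells. HERC5, named after its values were seen, thus lay lowest after IFNα (difference 0.67), and without the 3 high-hypoxia arrays it was not called (0.41). Of 8 measured guanylate-binding and PARP proteins, 7 were lower after IL6, with a median of -2.613. GBP4, a GTPase of the cell's defence against intracellular microbes, was at least 34.3-fold lower (-5.10). PARP14 (-3.61), PARP9 (-2.81) and PARP12 (-2.42), which attach ADP-ribose to proteins, were lower too, as was DTX3L (-3.37), the ubiquitin ligase that partners PARP9. Among 7 measured sensors of foreign nucleic acid 3 were lower, led by DHX58, a relative of the RNA sensor RIG-I (-2.96), and ZNFX1, an RNA helicase (-2.50).

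Antigen presentation followed. Of 16 measured genes of MHC class I presentation, 12 were lower and none higher after IL6, with a median of -1.018. The immunoproteasome subunits PSMB9 (-2.85) and PSMB8 (-2.71) were lower after IL6. TAP1, which pumps peptides into the endoplasmic reticulum, had 7.66, 7.64 and 7.53 after IL6, against 10.40, 10.50 and 10.39 after IFNα, with 6.95, 6.96 and 6.82 in untreated cells, a 7.06-fold lower level after IL6. TAP1 was separate in all 3 groups, with IL6 nearer to untreated. The class I gene BOLA differed by -1.54 and the proteasome activator PSME2 by -1.29. BOLA-DRA, a class II chain that also marks leukocytes, differed by -1.97. Sequences of BOLA genes resemble each other, so a probe set may read more than 1 of them.

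In RefSeq's cattle assembly ARS-UCD2.0, several of these genes are next to each other with no protein-coding gene between them. PARP9, DTX3L and PARP14 form such a run, as do PSMB8, TAP1 and PSMB9. MX2 and MX1, IFI44 and IFI44L, and UBE2L6 and SERPING1 are neighbouring pairs, and every member of these runs and pairs was lower after IL6. MYC and TRIB1, with 1 such gene between them, were both higher after IL6. They differed against untreated cells: MYC was below them after IFNα, and TRIB1 was above them after IL6. Neighbours were sought only among the 127 named genes, of which 109 were called, so a shared direction here is a description.

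IL6R and OSMR, the measured receptors of the IL6 family, were not called. IL6R had 6.61, 6.17 and 6.26 after IL6, against 6.01, 6.00 and 5.87 after IFNα, with 6.14, 6.25 and 6.14 in untreated cells. The cytokine arrays of IL6R did not overlap, and its difference of 0.39 (limma, adjusted p = 0.0445) was below the fold limit. Without the 3 high-hypoxia arrays, on IL6 repeat 1 alone, the difference was 0.605. OSMR, the oncostatin M receptor, had 7.37, 7.88 and 8.18 after IL6, against 7.63, 7.71 and 8.0 after IFNα, with 6.77, 7.0 and 6.86 in untreated cells. The cytokines overlapped, both above untreated, and the 95% interval of their difference was -0.30 to 0.36. Other probe sets of OSMR disagreed, with differences of -0.78 and -0.99 (called) and 0.14 (not called), so its direction is uncertain.

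Of 25 measured genes of the IL6 and STAT3 pathway 4 were higher and none lower after IL6, with a median of 0.13. SOCS3, the feedback inhibitor of IL6 signalling, had 5.97, 5.97 and 5.86 after IL6, against 4.56, 4.44 and 4.65 after IFNα, with 4.65, 4.66 and 4.65 in untreated cells. It was separate from both and at least 2.61-fold higher after IL6 than after IFNα (limma, adjusted p = 2.12e-09), while a second probe set was not called (0.46). CEBPD, a transcription factor of the acute phase response, had 10.88, 10.71 and 10.37 after IL6, against 8.99, 8.84 and 8.63 after IFNα, with 8.84, 8.80 and 8.78 in untreated cells (3.56-fold higher after IL6). MYC, a growth regulator, had 9.83, 9.27 and 8.77 after IL6, against 8.08, 8.09 and 7.52 after IFNα, with 9.29, 9.38 and 9.39 in untreated cells. For MYC the IFNα arrays lay below both other groups, and the IL6 and untreated arrays overlapped. The IL4 receptor chain IL4R was higher after IL6 (0.78), with a second probe set not called (0.50). STAT3 itself had 10.92, 10.93 and 10.91 after IL6, against 10.60, 10.64 and 10.75 after IFNα, with 10.59, 10.60 and 10.53 in untreated cells, a separate but small difference of 0.26 that fell below the fold limit (adjusted p = 0.000759).

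Among 14 measured negative regulators of cytokine signalling, SPRY2, an inhibitor of growth factor signalling, was higher after IL6 (0.80). NFKBIA, which holds NF-κB in the cytoplasm (-0.68), and PTPN6, a phosphatase of cytokine receptors (-0.61), were lower, and PTPN6 was not called without the 3 high-hypoxia arrays (-0.53). The acute phase and complement list was divided, with 4 of 28 measured genes higher and 4 lower after IL6. A2M, a broad protease inhibitor, had 10.79, 10.87 and 10.88 after IL6, against 9.88, 9.70 and 9.74 after IFNα, with 10.88, 10.66 and 10.77 in untreated cells. Its IFNα arrays were the low ones, and IL6 and untreated arrays overlapped. The complement genes C1R (-1.78), C4A (-1.55), C1S (-0.90) and SERPING1 (-0.75) were lower after IL6, and C1R and C1S are genomic neighbours.

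A set of genes had untreated cells between the cytokines, with IL6 arrays on the other side of every untreated array from the IFNα arrays. TNFAIP6, a secreted hyaluronan-binding protein of inflamed tissue, had 10.58, 10.38 and 10.31 after IL6, against 6.64, 6.40 and 6.35 after IFNα, with 8.65, 8.49 and 8.48 in untreated cells. It had the greatest difference among the named genes higher after IL6, at 3.96 ± 0.09 (SE), 15.6-fold (limma, adjusted p = 1.14e-13), and a second probe set was also higher (3.49). ATF3, a stress-induced transcription factor, had 11.63, 11.38 and 11.12 after IL6, against 9.54, 9.61 and 9.27 after IFNα, with 10.29, 10.33 and 10.30 in untreated cells. TMOD1, which caps actin filaments (2.19), GRM7, a metabotropic glutamate receptor (2.00), C16H1orf21 (1.93), ADAM9, a membrane protease (1.54), and CCDC167 (1.43) showed this order too. EPHX2, an epoxide hydrolase of lipid mediators, showed it the other way round, with 7.31, 7.30 and 7.26 after IL6, against 9.58, 9.72 and 9.60 after IFNα, and 7.94, 8.04 and 8.01 in untreated cells. A second EPHX2 probe set was not called (0.10), so that gene is uncertain. These genes were picked by their order, which is therefore a description.

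**Figure D3:**
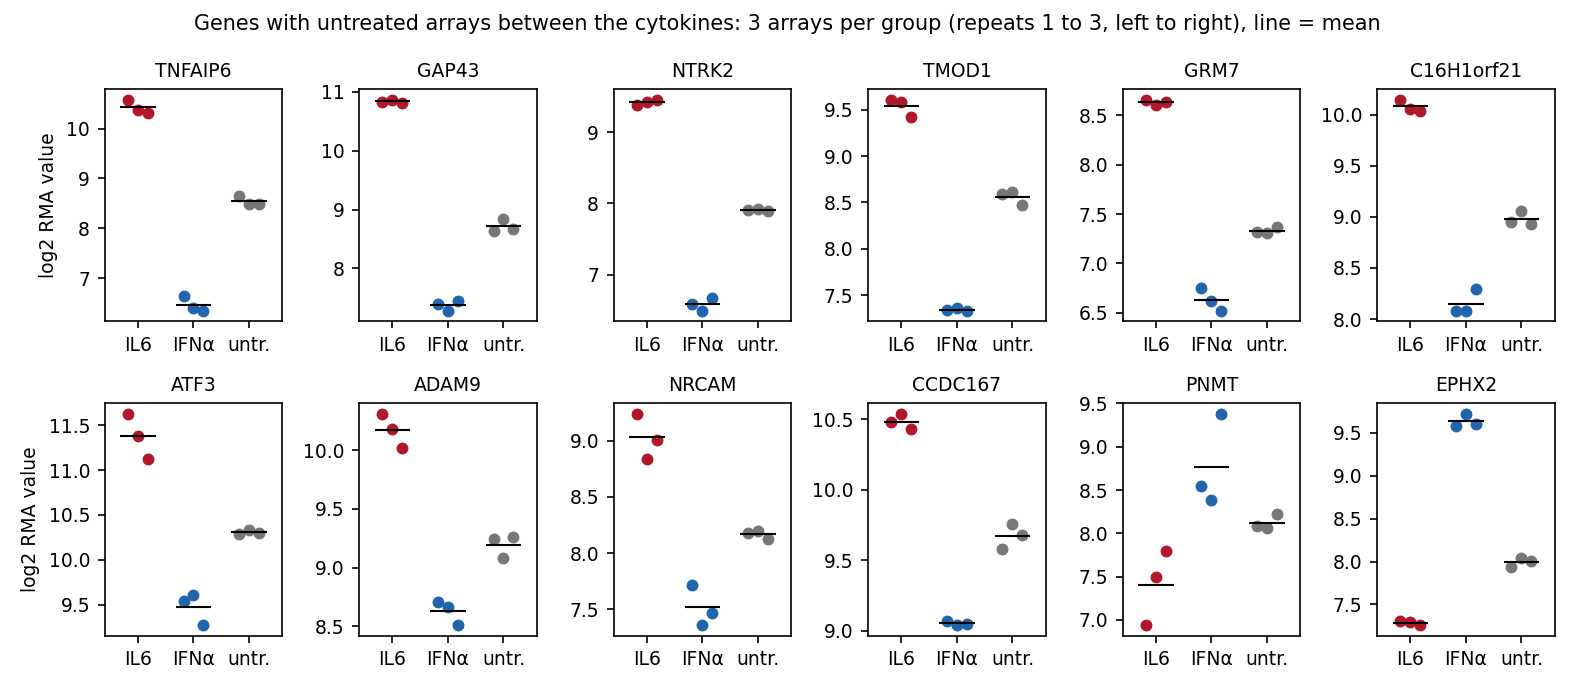
Log2 levels on each array for genes whose untreated arrays (untr.) lie between the cytokines, with IL6 arrays at the left of each panel each panel on its own axis and lines at group means. TNFAIP6, GAP43 and NTRK2 have the IL6 arrays above and the IFNα arrays below all untreated arrays, and PNMT has the opposite order.

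Several genes of neurite growth were higher after IL6. Of 31 measured genes on that list 8 were higher and 1 lower, with a median of 0.087. GAP43, a protein of growing axon tips, had 10.83, 10.87 and 10.82 after IL6, against 7.40, 7.28 and 7.45 after IFNα, with 8.63, 8.84 and 8.67 in untreated cells. NTRK2, the receptor for brain-derived neurotrophic factor, had 9.39, 9.43 and 9.46 after IL6, against 6.59, 6.49 and 6.67 after IFNα, with 7.91, 7.92 and 7.89 in untreated cells. No group overlapped another in either gene, and they were 11-fold and 7.18-fold higher after IL6. The adhesion molecule CNTN1 was different in its order: 8.58, 8.40 and 8.23 after IL6, against 6.87, 6.88 and 6.26 after IFNα, with 8.92, 8.73 and 8.80 in untreated cells. There the untreated arrays were the high ones. NRCAM, another neuronal adhesion molecule (1.51), STMN4, a microtubule regulator (1.36), and DPYSL3, a growth cone protein (0.93), were also higher after IL6. NEFL, a neurofilament subunit named after its values were seen, was the lower gene: 9.82, 9.98 and 10.02 after IL6, against 10.67, 10.71 and 10.63 after IFNα, with 10.69, 10.70 and 10.73 in untreated cells.

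A list of potassium and sodium channels and neurotransmitter receptors had 11 measured genes, and 4 were higher after IL6. KCNJ8, which forms the pore of a potassium channel closed by ATP, had 7.97, 7.88 and 8.0 after IL6, against 4.78, 4.64 and 5.12 after IFNα, with 5.15, 5.28 and 5.09 in untreated cells (at least 8.59-fold higher after IL6). KCNE1, an accessory potassium channel subunit, had 7.69, 7.69 and 7.62 after IL6, against 5.28, 5.29 and 5.28 after IFNα, with 5.57, 5.89 and 5.66 in untreated cells. Both genes were separate after IL6 from the IFNα and untreated arrays. The glutamate receptor subunit GRIA3 (1.71) and GRM7, described above and not itself a channel, were the other higher genes.

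Of 19 measured neuropeptides and peptide hormones 5 were higher and none lower after IL6, with a median of 0.217. GAL, the neuropeptide galanin, had 13.10, 13.13 and 13.11 after IL6, against 11.89, 11.82 and 11.84 after IFNα, with 11.70, 11.64 and 11.65 in untreated cells. The repeats were tight, and the difference was 1.26 ± 0.03 (SE), 2.40-fold (limma, adjusted p = 1.14e-13). PTHLH, a relative of parathyroid hormone, was at least 5.12-fold higher, NPPA, the atrial natriuretic peptide, 2.25-fold, VIP, a vasodilating peptide, at least 1.91-fold and NTS, neurotensin, 1.53-fold. PENK, the enkephalin precursor, had 13.83, 13.82 and 13.84 after IL6, against 13.98, 13.97 and 14.01 after IFNα, with 13.90, 13.86 and 13.90 in untreated cells, a difference of -0.16 that was below the fold limit and near the top of the scale. TAC1, the substance P precursor, was dim after IL6, after IFNα and in untreated cells, and was not called (0.16). STC1, stanniocalcin, named after its values were seen, had 5.37, 7.80 and 8.96 after IL6, against 5.37, 5.18 and 8.14 after IFNα, with 5.22, 4.89 and 5.10 in untreated cells, and its high arrays were those with high hypoxia genes.

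In the catecholamine pathway, 2 of 15 measured genes were higher and 1 lower after IL6, with a median of -0.083. TH, the rate-limiting enzyme, had 13.64, 13.69 and 13.65 after IL6, against 13.36, 13.40 and 13.42 after IFNα, with 13.45, 13.51 and 13.38 in untreated cells. It was separate but small (0.27, adjusted p = 7.68e-06) and below the fold limit. PNMT, which turns noradrenaline into adrenaline, had 6.94, 7.49 and 7.79 after IL6, against 8.55, 8.38 and 9.38 after IFNα, with 8.08, 8.06 and 8.22 in untreated cells. Among the IL6, IFNα and untreated arrays, those of IL6 were lowest and those of IFNα highest. The difference was -1.36 ± 0.23 (SE), 2.57-fold lower after IL6 (limma, adjusted p = 0.000356). Within each cytokine the high-hypoxia arrays read higher. SULT1A1, which sulphates catechols and phenols, was higher after IL6 (1.16).

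SLC18A2, the vesicular monoamine transporter, had 12.12, 12.32 and 12.61 after IL6, against 11.36, 11.37 and 12.27 after IFNα, with 11.56, 11.45 and 11.48 in untreated cells. The cytokine arrays overlapped, the third IFNα array being a high-hypoxia array, and the call (0.68) was lost without IL6 repeat 3 (0.55), without IFNα repeat 1 (0.53) and without IFNα repeat 2 (0.54). DBH, which makes noradrenaline, had 10.17, 10.76 and 11.22 after IL6, against 11.04, 10.80 and 11.40 after IFNα, with 11.51, 11.25 and 11.15 in untreated cells. It overlapped and was not called (-0.36, limma adjusted p = 0.261), but was called lower without IL6 repeat 3 (-0.61). Without the 3 high-hypoxia arrays, on IL6 repeat 1 alone, DBH differed by -0.75. On that 1 array some other pathway genes, named after their values were seen, also read lower than after IFNα. They included the noradrenaline transporter SLC6A2 (-0.81), GCHFR, a regulator of cofactor synthesis (-0.64), and MAOB, which breaks down monoamines (-0.60). Further pathway genes read higher on IL6 repeat 1 than on IFNα repeats 1 and 2. Among them were SLC18A2 (12.12 against 11.36 and 11.37), SULT1A1 (10.30 against 9.32 and 9.12) and TH (13.64 against 13.36 and 13.40). The part of the hypoxia genes in these differences was not tested. No gene was called among 13 measured granins and peptide-processing genes (range -0.41 to 0.367; 6 at an unadjusted limma p under 0.05) or among 19 of exocytosis (range -0.447 to 0.31; 7 at that p). RAB3B, a vesicle GTPase named after its values were seen, differed by -0.45 with all arrays. On IL6 repeat 1 alone, without the 3 high-hypoxia arrays, the difference was -0.61. CHGA, CHGB and SCG2, granins of the secretory vesicle, differed by -0.16, -0.28 and -0.16.

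**Figure D4:**
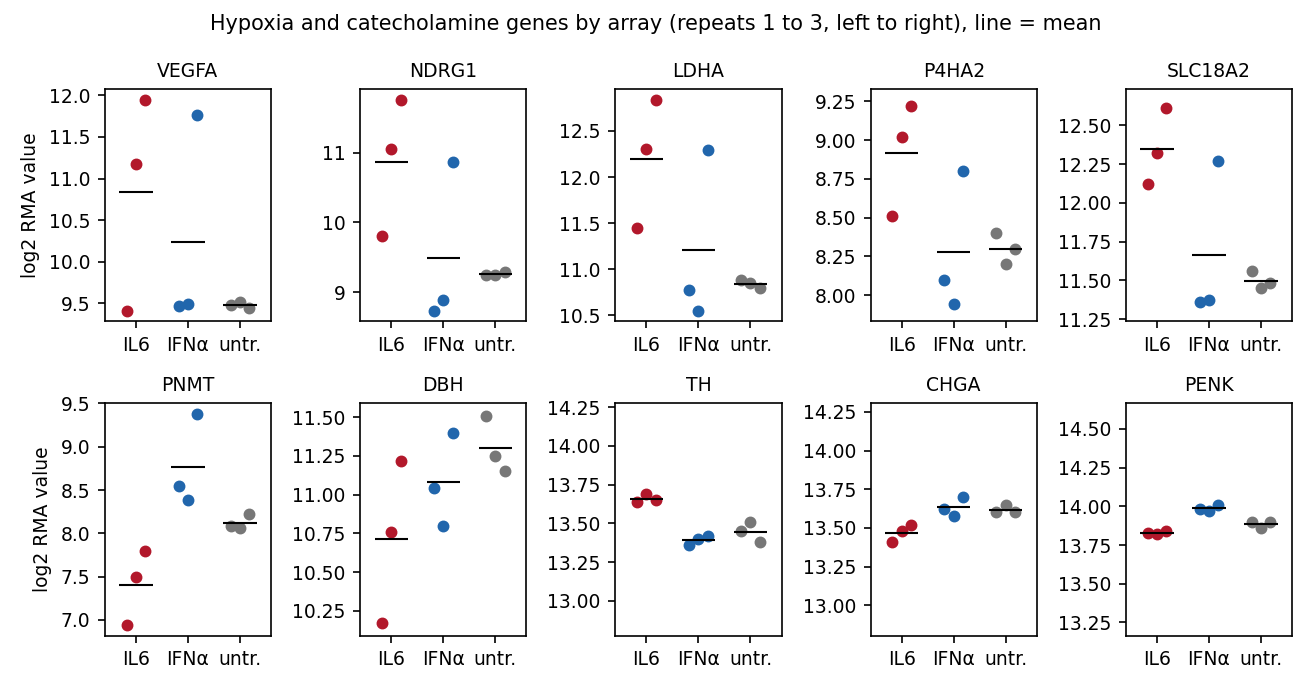
Log2 levels on each array of hypoxia genes and catecholamine genes, with IL6 arrays at the left of each panel, then IFNα and untreated arrays (untr.), each panel on its own axis and lines at group means. NDRG1, LDHA and VEGFA are high on IL6 repeats 2 and 3 and IFNα repeat 3.

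Of the 32 measured glycolysis and hypoxia genes themselves, 4 were higher and none lower after IL6, with a median of 0.227. EGLN3, an oxygen-sensing hydroxylase, had 5.74, 6.22 and 6.80 after IL6, against 4.60, 4.46 and 5.35 after IFNα, with 4.69, 4.73 and 4.81 in untreated cells. NDRG1, a stress-response gene, had 9.80, 11.05 and 11.76 after IL6, against 8.73, 8.88 and 10.87 after IFNα, with 9.25, 9.25 and 9.29 in untreated cells. EGLN3 was separate between the cytokines, while NDRG1 overlapped and only just passed (adjusted p = 0.0449), with adjusted p up to 0.206 under the alternatives. With the IL6 and IFNα arrays alone, the limma adjusted p of NDRG1 was 0.14. VEGFA, the vascular growth factor, had 9.41, 11.17 and 11.95 after IL6, against 9.47, 9.49 and 11.76 after IFNα, with 9.48, 9.52 and 9.44 in untreated cells. Its interval of -0.62 to 1.83 is wide, although it rests on the pooled spread. The standard deviation of VEGFA was 1.30 after IL6 and 1.32 after IFNα, against 0.04 in untreated cells. VEGFA was called without IFNα repeat 3 (1.36) and with array weights (1.40), and without the 3 high-hypoxia arrays its difference was -0.07 and not called. LDHA, lactate dehydrogenase A, was not called (0.99, limma adjusted p = 0.0558), but was called without IL6 repeat 1 (1.36) and without IFNα repeat 3 (1.53). Without the 3 high-hypoxia arrays, on IL6 repeat 1 alone, the difference was 0.785. LDHA was also called with array weights (1.48), after median centring (adjusted p = 0.0461) and in the fit on probe sets brighter than the median (adjusted p = 0.0492). Further probe sets of LDHA were not called (0.21 and -0.16) and were even across the IL6 repeats, so the gene is uncertain. PKM, pyruvate kinase, had 9.92, 9.91 and 9.93 after IL6, against 9.11, 9.02 and 9.30 after IFNα, with 9.12, 9.26 and 9.06 in untreated cells. ADM, the peptide adrenomedullin, had 10.92, 11.70 and 12.08 after IL6, against 11.98, 12 and 12.38 after IFNα, with 11.64, 11.64 and 11.61 in untreated cells. PKM was even across IL6 repeats and separate from IFNα (0.78). ADM, named after its values were seen, differed by -1.07 on IL6 repeat 1 alone, with the 3 high-hypoxia arrays left out together.

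Of 22 measured immediate early and AP-1 genes, 7 were higher and 1 lower after IL6, with a median of 0.218. MYB, a transcription factor of proliferating progenitors, had 10.42, 10.41 and 10.30 after IL6, against 8.08, 7.86 and 7.69 after IFNα, with 8.18, 8.14 and 8.12 in untreated cells (5.66-fold higher after IL6). RASD1, a Ras-related signalling protein, was also higher (1.79). CREM, a cAMP-response factor, was higher in its brightest probe set (1.51), but of 5 others 1 was called the same way, so the gene is uncertain. NR4A2, a nuclear receptor of catecholamine neurons, was lower after IL6 (-1.11), while its other probe sets were not called.

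Cytokines and chemokines were mostly uncalled, with 2 of 39 measured genes higher and 3 lower after IL6. CXCL13, a B-cell attractant, had 7.71, 8.08 and 8.36 after IL6, against 4.88, 4.83 and 5.47 after IFNα, with 5.33, 5.63 and 5.34 in untreated cells, a 7.94-fold higher level after IL6. CCL8 (-0.80) and CCL5 (-0.74), attractants of monocytes and T cells, were lower, as was CSF1, the macrophage growth factor (-1.16, with a second probe set at -0.07). The IL6 gene itself was dim and was not called (-0.41, adjusted p = 0.0492), but was called lower without IFNα repeat 2 (-0.62).

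Of 20 measured matrix protease genes 4 were higher and 3 lower after IL6. Beside TNFAIP6, the plasminogen activators PLAT (1.02) and PLAU (0.73) and the aggrecan-cutting protease ADAMTS4 (0.73) were higher, and the collagen-cutting MMP2 was lower (-0.68). Among 18 measured cell death genes 3 were lower and none higher. These were CASP4, an inflammatory caspase (-1.80), CFLAR, which restrains caspase 8 (-1.19), and BIRC3, an inhibitor of apoptosis (-0.74). On IL6 repeat 1 alone, without the 3 high-hypoxia arrays, the death receptor FAS differed by -0.85 and the caspase CASP6 by 0.63. Both were named after their values were seen. MANF, a secreted chaperone-like factor, had 10.72, 10.79 and 10.89 after IL6, against 11.99, 12.05 and 12 after IFNα, with 10.62, 10.74 and 10.64 in untreated cells. It and the stress sensor SESN2 (-1.29) were the called genes of 16 measured for endoplasmic reticulum stress. HMGCS1 was lower (-0.72), the 1 called gene of 22 measured for cholesterol and fatty acid synthesis, whose median was -0.03. Without the 3 high-hypoxia arrays its difference was -0.55, below the fold limit. NR3C1, the glucocorticoid receptor, was lower (-0.93, with a second probe set at -0.58, not called) and AGTR1, the angiotensin receptor, was lower (-0.73). EDNRB, an endothelin receptor, was higher (1.08). Of the 28 measured genes on the secretagogue receptor list, which holds NR3C1, AGTR1 and EDNRB, 25 were not called, with a median of 0.023. No gene was called among 27 measured cell cycle genes (range -0.463 to 0.273), although 15 had an unadjusted limma p under 0.05. CDKN1C, a cell cycle inhibitor named after its values were seen, differed by -0.16 with all arrays. On IL6 repeat 1 alone, without the 3 high-hypoxia arrays, the difference was -1.33.

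**Figure D5:**
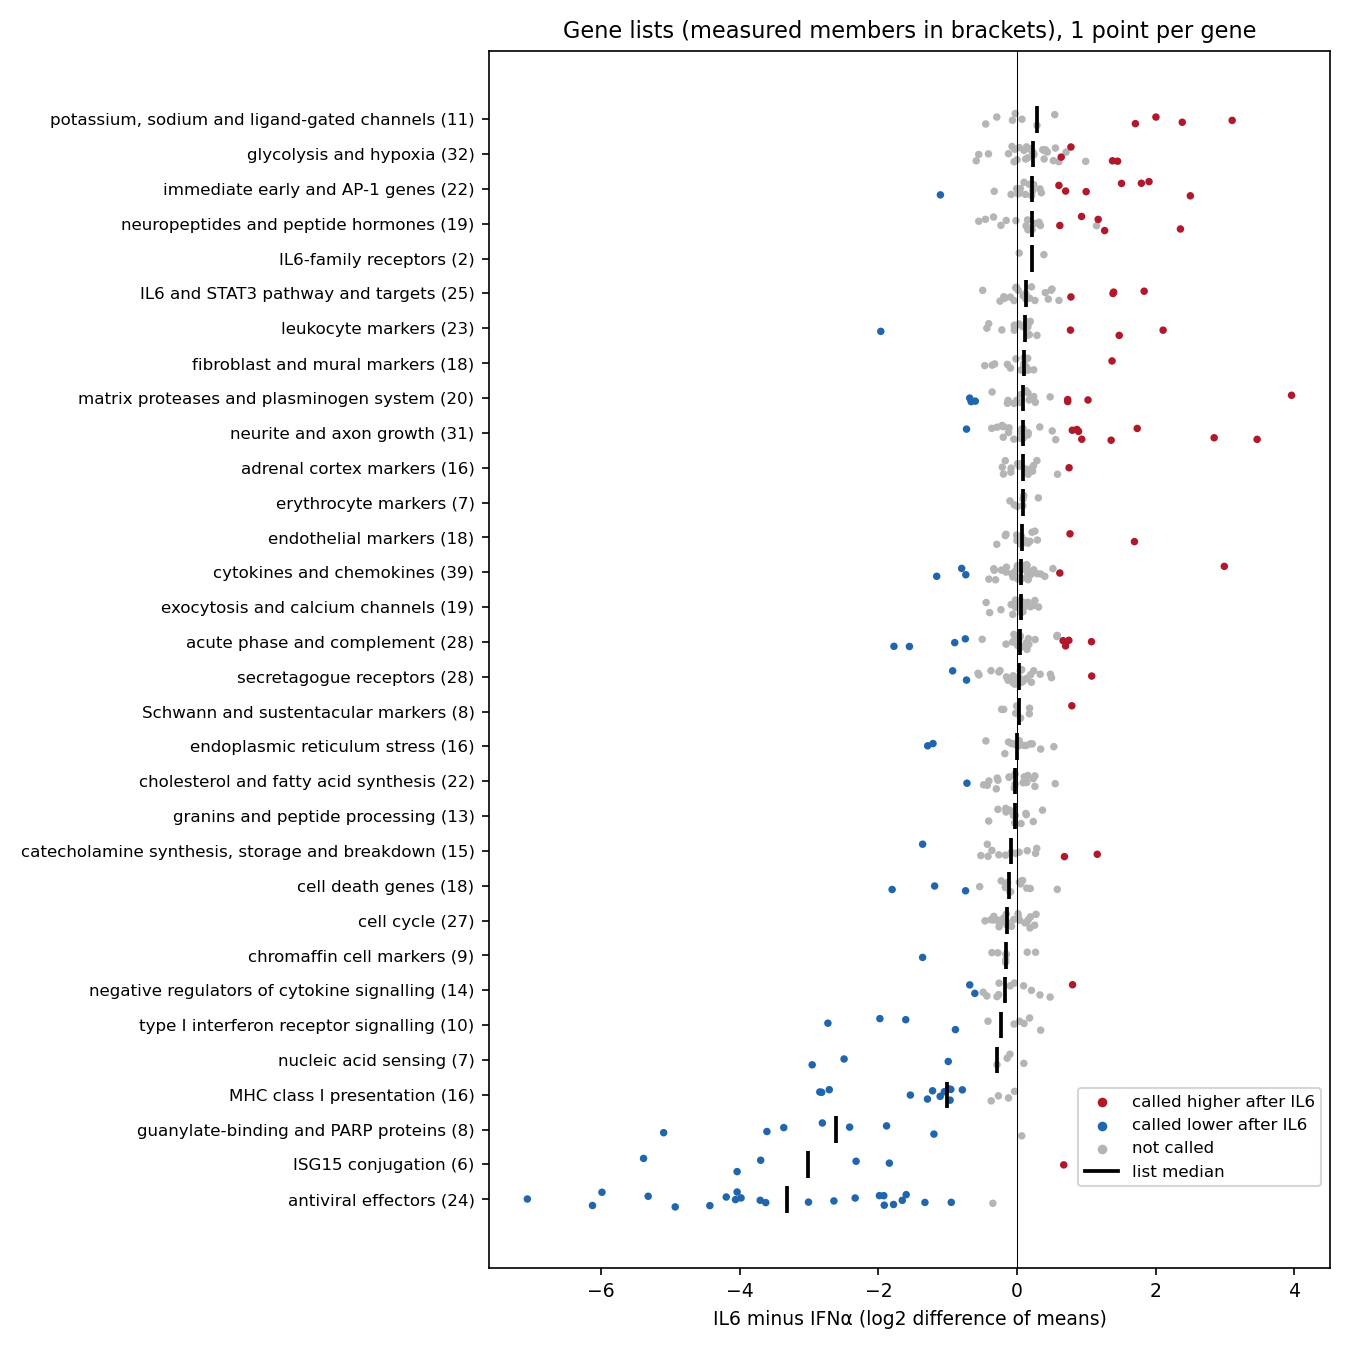
Log2 differences, IL6 minus IFNα, of the measured members of each gene list, with called genes coloured and the list median marked. The antiviral list has its median at -3.318, and the granin list spans -0.41 to 0.367.

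The labelled cell type was checked against marker genes. TH, CHGA, CHGB, SCG2 and PENK all read between 13.05 and 14.01 on the IL6, IFNα and untreated arrays. Of 9 measured chromaffin markers PNMT alone was called, and the summed unlogged level of the list was 68500 to 74874 after IL6, against 74515 to 80540 after IFNα, with 74407 to 76443 in untreated cells. In bulk samples, fewer cells of a type and less RNA per cell cannot be told apart. Of 23 measured leukocyte markers 3 were higher (CORO1A 2.11, S100A12 1.47, CD14 0.77) and 1 lower (BOLA-DRA) after IL6. A second CD14 probe set was not called (-0.02), nor was the mean of both (0.38), so CD14 is uncertain. The leukocyte list summed to 1918 to 2030 after IL6, against 1613 to 1653 after IFNα, with 1309 to 1367 in untreated cells. Unlogged sums weigh bright genes most, and CORO1A had a mean log2 level of 9.36 after IL6 and 7.25 after IFNα. Of the 23 markers 19 were not called, with a median of 0.12, so the sum does not describe the list as a set. PTPRC, a defining leukocyte marker named after its values were seen, was dim, with 4.56, 4.60 and 4.70 after IL6, against 4.51, 4.71 and 4.76 after IFNα.

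Endothelial markers summed to 1079 to 1159 after IL6, against 904 to 927 after IFNα, with 1059 to 1111 in untreated cells. Of 18 measured, 2 were higher (ANGPT2, a vessel-remodelling ligand, 1.69, and SELP 0.76) and 16 were not called, with a median of 0.065. Schwann and sustentacular markers summed to 1898 to 1944 after IL6, against 1394 to 1465 after IFNα, with 1701 to 1771 in untreated cells. Of 8 measured, S100B was higher (0.79) and 7 were not called, with a median of 0.022. Their mean log2 level overlapped between the cytokines, at 6.566 to 6.652 after IL6 and 6.474 to 6.586 after IFNα. Fibroblast and mural markers overlapped in sum, at 17571 to 18672 after IL6 and 18472 to 19450 after IFNα, with POSTN higher (1.37). Adrenal cortex markers summed to 3416 to 3813 after IL6 and 3339 to 3503 after IFNα, which overlap, with 4101 to 4120 in untreated cells. CYP21A2, a steroid hydroxylase, was higher after IL6 than after IFNα (0.75), and both cytokines' arrays lay below the untreated arrays. No erythrocyte marker of 7 was called, and none had an unadjusted limma p under 0.05. The part of other cell types in the differences above was not tested.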

How the data were processed

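Total RNA for 12 arrays was biotin-labelled and hybridised to Affymetrix bovine arrays with a single colour, per the labels. The deposited values are log2 expression levels from RMA, run by the authors according to the submitters' processing notes, which give no version. Of 24128 probe sets, 112 controls were left out. Symbols came from the platform annotation, updated through RefSeq's cattle gene table: 13292 probe sets had 1 symbol, 86 several and 10638 none, and 633 called probe sets had no single symbol and are not named. A gene was read from its brightest probe set.

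The test was limma 3.58.1 in R 4.3.3, with a mean per group over 12 arrays, eBayes with a trend, and Benjamini-Hochberg adjustment over 24016 probe sets. Tables and figures used Python 3.11.15 and matplotlib 3.10.9. A fold is given as "at least" where the lower mean is below 5.02, the lowest lower quartile of any array. In data simulated for this comparison over 24016 probe sets, 40% of the simulated 1.5-fold changes were called. At 2-fold 100% were called and at 4-fold 98.7%, and 1 unchanged probe set was called. The 1.5-fold change equals the fold limit, and 76% of these changes passed the adjusted p alone. The simulated spread was independent between arrays, without the shared rise of hypoxia genes on some arrays, so recovery in the real data may be lower.

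Named were the 15 greatest differences each way with separate arrays, up to 5 called members of each of 32 gene lists, 12 genes on opposite sides of untreated, and a set of signalling and chromaffin genes; 127 genes in all. These genes and lists were chosen with earlier results of these data known. Lists are described by counts and medians, without a test. Each count of called members stands beside 6.96% called over all genes. Calls were recomputed under 27 alternatives, and for named genes also on the mean of a gene's probe sets.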

Additional observations from a re-analysis of the deposited data

How the results depend on the processing

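The count of 1468 called probe sets depended on the fold limit: 4932 at 1.2-fold, 547 at 2-fold and 6839 with the adjusted p alone. Leaving out each array in turn gave 1444 to 1615. Centring each array on its median gave 1460, of which 51.2% were higher after IL6, against 46.2% in the values as deposited. No called gene named here reversed under any alternative run. Of 109 called named genes, 96 stayed called under each alternative that gave them a value, other than the 2-fold limit. The fit on probe sets brighter than the median held 85 of the 109, and the mean of all probe sets applied to the 31 with several. The other 13, AGTR1, BIRC3, CD14, CREM, HMGCS1, NDRG1, NFKBIA, NR4A2, NTS, P4HA2, PTPN6, SLC18A2 and TGFB2, lost the call under at least 1. With the repeat number as a block 1473 probe sets were called, and among named genes LDHA gained a call (0.99, adjusted p = 0.0247) and no other call changed. Same-numbered repeats of IL6 and IFNα deviated from their group means with correlations of 0.528, -0.0719 and 0.597. Repeats 1 and 3 correlated best with their own number, and repeat 2 did not. These values cannot settle whether same-numbered repeats were handled together. Dim genes give lower bounds only, and levels near the top of the arrays may be compressed.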
